A study of Mus musculus with 17 samples.

Results

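The comparison described here is that of whole-cell RNA from mouse embryonic stem cells given an siRNA against Gnl3 with whole-cell RNA from cells given a scramble siRNA. Its members were taken by their labels: 3 Gnl3 libraries and 3 scramble libraries, 6 of the 17 libraries of the study. Both groups are Rpl31-FTA E14Tg2a.4 cells, an embryonic stem cell line whose Rpl31, a protein of the large ribosomal subunit, was given a FLAG-TEV-AviTag. Cells of all groups were kept in serum with leukemia inhibitory factor, and ALIBi, a proximity biotinylation system, was used in the study to mark their ribosomes at the endoplasmic reticulum (ER). The whole-cell RNA is an aliquot of each lysate set aside before the marked ribosomes were purified, and polyA RNA of it was sequenced. The siRNA sequences, their dose and the time between transfection and lysis are not given in the sources used here, and all cells are of the same engineered line.

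Gnl3 encodes nucleostemin, a GTP-binding protein of the nucleolus that is abundant in stem cells and cancer cells and takes part in making the large ribosomal subunit. It is known to touch the p53 pathway by way of Mdm2, the ubiquitin ligase that keeps the transcription factor p53 low. When ribosome assembly is disturbed, free ribosomal proteins can bind Mdm2 and release p53, whose targets then stop the cell cycle or start cell death. The integrated stress response, which acts through the transcription factor Atf4, is a separate pathway that raises genes for amino acid supply and for tRNA charging when cells lack amino acids or when protein folding in the ER fails.

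The 6 libraries held between 15.2 and 22.8 M gene counts, and levels are given as counts per M gene counts (CPM). Gnl3 replicate 3 stood apart from the other 5 libraries, and the labels say that the submitters left it out. Its mitochondrially encoded share was 6.14%, against 1.86% to 2.03% in the others. Correlations were taken over these 5 and 2 whole-cell libraries of a further siRNA of the study, against Nmd3. Replicate 3 had 0.948 to 0.954 with them, while theirs with each other were 0.993 to 0.997. In replicate 3, transcripts with a GC content of 55% or more had a median level 0.87 lower on the log2 scale than in scramble (-0.87). Those under 45% had a median 0.34 higher. The counts below therefore come from the other 5 libraries, 3 scramble and 2 Gnl3, and the value of replicate 3 and the fit with all 6 stand beside them. Pluripotency genes were present in all 6 libraries, with Pou5f1 at 1238, 1276 and 1253 CPM in scramble and at 1176, 1236 and 568 CPM in Gnl3 replicates 1, 2 and 3. Of 24 fibroblast and feeder cell markers, Postn, Lum and Fap had no count in any of the 6, while the other members had counts. The summed level of the list was 584 to 667 CPM in scramble and 598 to 701 CPM in Gnl3 libraries. Of its 14 members tested, 11 had a log2 difference above 0. At an adjusted p under 0.05 in edgeR 1 of the 14 rose (7.14%, beside 0.932% of all genes).

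Gnl3 mRNA (ENSMUSG00000042354.8) was measured at 272, 270 and 256 CPM in the scramble libraries. It was at 70.2, 54.2 and 88.2 CPM in the Gnl3 libraries. All 3 Gnl3 libraries lay below all 3 scramble libraries, replicate 3 included. From a mean of 266 ± 8.76 CPM (SD, n = 3) the level went to 62.2 ± 11.3 CPM (SD, n = 2), a remaining share of 0.234. On the log2 scale it fell by 2.10 (SE 0.07, adjusted p = 2.01e-15 in edgeR's quasi-likelihood test). With replicate 3 added the value was -1.84 (SE 0.22, adjusted p = 0.819). Gnl3 overlaps an exon of Pbrm1 on the other strand, and the strand setting of the counting is not given. Pbrm1, a chromatin remodelling subunit, was at 105, 86.9 and 91.5 CPM in scramble and at 92, 83.5 and 130 CPM in Gnl3 libraries, with a log2 difference of -0.10 (adjusted p = 0.624 in edgeR).

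**Figure D1:**
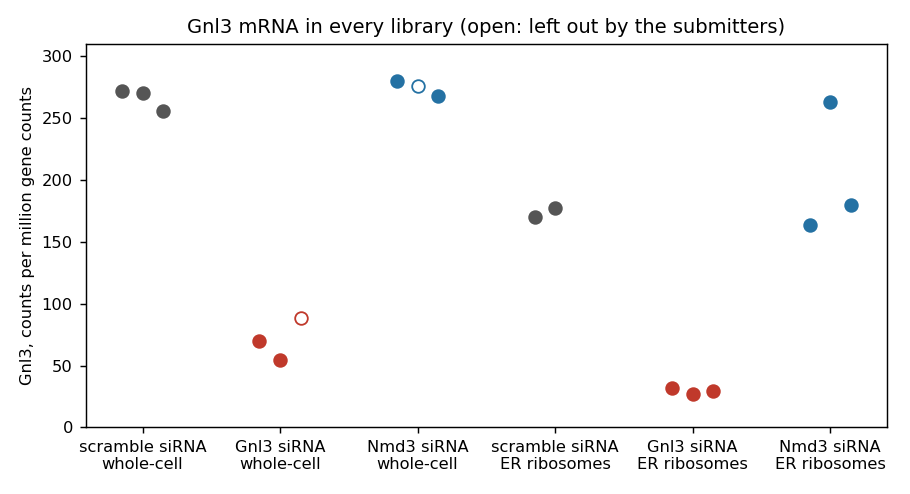
Gnl3 level in CPM (vertical axis) in each of the 17 libraries, by siRNA and fraction (horizontal axis), 1 point per library. Open points are the whole-cell libraries the submitters left out. The 3 Gnl3 siRNA whole-cell libraries sit between 54.2 and 88.2 CPM, all below the scramble libraries at 256 to 272 CPM.

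The close relatives of nucleostemin and the other GTPases of ribosome assembly did not pass the test. Gnl3l, its nearest paralog, was at 143, 141 and 153 CPM in scramble and at 153, 144 and 151 CPM in Gnl3 libraries, so that the groups overlapped (log2 difference 0.03, adjusted p = 0.911 in edgeR). Gnl2, a nucleolar GTPase of the same family, had a log2 difference of -0.09 (adjusted p = 0.571), and Gtpbp4, which works on the early large subunit, also one of -0.09 (adjusted p = 0.498, edgeR). Of the 10 GTPases listed, Gnl3 was the 1 that was called (10%, beside 1.58% of all genes). The median of the 10 was -0.09, and 1 of them was above 0. In ER ribosome-bound RNA 3 of the 10, Gnl3 among them, were called lower, beside 3.49% of all genes. Among 9 genes for proteins reported to bind nucleostemin, Mdm2 rose and 8 did not pass. Npm1, an abundant nucleolar chaperone, was at 2692, 2877 and 2646 CPM in scramble and at 2843, 2724 and 5880 CPM in Gnl3 libraries, the last being replicate 3. Terf1, a telomere-binding protein, had a log2 difference of 0.05 (adjusted p = 0.797, edgeR).

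With 2 Gnl3 libraries few genes were called, and the called changes were mostly small. Of 17163 genes tested, 1910 had an unadjusted p under 0.05 in edgeR. At an adjusted p under 0.05, 272 (1.58%) were called. Of these, 160 rose (0.932%) and 112 fell (0.653%). This balance rests on single libraries: 90 rose and 95 fell without Gnl3 replicate 2, and 176 rose and 175 fell without scramble replicate 2. The median size of a called change was 0.34 on the log2 scale, 36 called genes (0.21%) changed by at least 1.5-fold (22 higher, 0.128%, and 14 lower, 0.0816%), and 9 by at least 2-fold. In all 272 the 2 Gnl3 libraries lay outside the range of the 3 scramble libraries. The genes were called on these same libraries, so this follows largely from the call and adds no support. Of the 272, 255 are protein coding. With replicate 3 added, none of 16819 genes was called by edgeR (0%), the smallest adjusted p being 0.819. In that fit 420 genes had an unadjusted p under 0.05. DESeq2 called 5 genes with the same libraries: Gnl3, Perp, Trp53inp1, Ccn2 and Aard. Of 270 called genes that were tested in both, 246 kept their sign. The fit with replicate 3 also holds the libraries that gave the calls, so the kept signs are no independent check. Without scramble replicate 1, scramble replicate 3 or Gnl3 replicate 1 the count of 272 became 181, 176 or 126, and that of 36 became 20 without Gnl3 replicate 1. In such bulk RNA, fewer cells of a kind and less RNA per cell cannot be told apart.

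**Figure D2:**
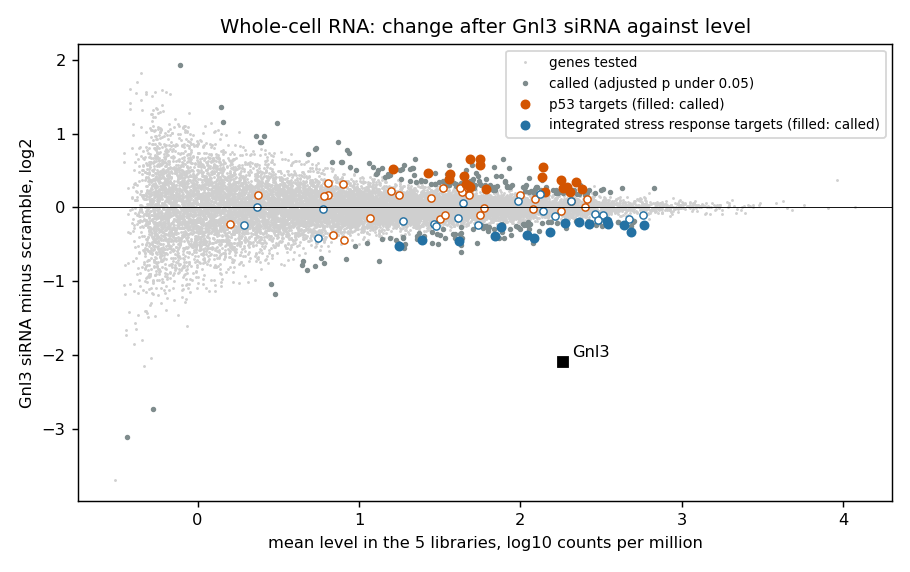
Change after Gnl3 siRNA (vertical axis, log2, Gnl3 replicates 1 and 2 minus scramble) against mean level (horizontal axis, log10 CPM over the 5 libraries), 1 point per gene. Dark grey points are the 272 called genes, and filled orange and blue points are the called p53 targets (21) and integrated stress response targets (16), which lie above and below 0.

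Many targets of p53 rose. Of 49 measured p53 target genes, 21 were called and all 21 of them rose, while 28 did not pass the test and none fell. The called share was 42.9%, beside 0.932% of all genes called higher. The gene lists were chosen with earlier results of these data known, so this share is no independent support. The median log2 difference of the 49 was 0.22 and 39 were above 0, while the median of all genes tested was -0.002. Of the 21 changes, 2 reached 1.5-fold, and they ran from 0.21 to 0.65 on the log2 scale. With replicate 3 added the median of the list was 0.18 and no member was called by edgeR. DESeq2 called Perp and Trp53inp1 of this list with all 6 libraries. Of the 21 called members, 11 lay above the scramble range in replicate 3 and 10 lay below it. The shares above and below that range over all genes were not counted. The part that the shift of that library with GC content has in these positions was not tested.

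Perp, a p53 target that encodes a membrane protein of cell junctions with a part in cell death, was at 41.2, 40.1 and 38.5 CPM in scramble. It was at 63.1, 61.3 and 66.3 CPM in Gnl3 replicates 1, 2 and 3. All 3 Gnl3 libraries lay above all scramble libraries, and the level rose 1.57-fold (log2 0.65, SE 0.07, adjusted p = 5.27e-08 in edgeR). Trp53inp1, which encodes a nuclear protein that aids p53 and autophagy, went from 125, 110 and 116 CPM to 170, 167 and 171 CPM. The groups did not overlap for this gene either, and the rise was 0.54 (SE 0.05, adjusted p = 1.18e-08, edgeR). Plk2, a kinase gene activated by p53, went from 46.1, 39.5 and 51.3 CPM to 73.6, 69.9 and 59.5 CPM (log2 0.65, SE 0.07, adjusted p = 4.71e-07, edgeR). These 3 were higher in 3 of 3 Gnl3 libraries.

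Mdm2, which p53 itself activates, was at 121, 115 and 123 CPM in scramble and at 168, 150 and 254 CPM in Gnl3 libraries (log2 0.41, SE 0.05, adjusted p = 3.46e-06, edgeR). Ccng1, a cyclin-like partner of a phosphatase in p53 feedback, also rose and went from 167, 159 and 156 CPM to 219, 194 and 312 CPM (log2 0.37, adjusted p = 2.25e-05, edgeR). Both were highest in replicate 3. The mRNA of p53 itself (Trp53) was at 372, 363 and 382 CPM in scramble and at 379, 385 and 276 CPM in Gnl3 libraries, with a log2 difference of 0.04 (adjusted p = 0.799, edgeR). Zmat3, an RNA-binding protein gene downstream of p53, rose by 0.21, and Aen, a nuclease gene, by 0.21.

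Cell cycle and growth genes of the list were mixed. Btg2, an antiproliferative gene, rose by 0.45 from 32.2, 32.2 and 32.3 CPM to 45.3 and 42.2 CPM, with replicate 3 at 23.6 CPM, below the scramble range. Phlda3, an inhibitor of Akt signalling, rose by 0.57 from 46.3, 44.3 and 51.1 CPM to 73.2 and 67.1 CPM, with replicate 3 at 19.9 CPM. Gtse1, a regulator of p53 in G2, rose by 0.27 and Plk3, a further kinase of the Polo family, by 0.39. Rb1, the retinoblastoma gene, rose by 0.46, and it overlaps Lpar6 and Rcbtb2 on the other strand. Cdkn1a, the cell cycle inhibitor p21 and the best known p53 target, was at 40.1, 41.7 and 44.4 CPM in scramble and at 50.9 and 49.3 CPM in Gnl3 replicates 1 and 2. It did not pass (log2 0.26, SE 0.07, adjusted p = 0.0584, edgeR), and replicate 3, at 35.5 CPM, lay below scramble.

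Among the genes of cell death, Bbc3 (Puma, which opens mitochondria), Apaf1 (the scaffold of the apoptosome) and Eda2r (a death receptor) rose by 0.31, 0.29 and 0.42. Bbc3 was at 49.2 and 55.3 CPM in Gnl3 replicates 1 and 2 and at 8.19 CPM in replicate 3, against 42.6, 38.5 and 46.2 CPM in scramble. Its log2 difference was -0.16 with replicate 3 added. Bax, a pore-forming protein of mitochondria, did not pass, with a log2 difference of 0.11 (adjusted p = 0.383, edgeR), and Pmaip1 (Noxa) neither, with 0.21 (adjusted p = 0.2). Gdf15, a secreted factor, and Ccnd2, a cyclin, had the lowest values of the list at -0.37 and -0.44 and did not pass (adjusted p = 0.34 and 0.141, edgeR). The remaining called members were Ptprv, Epha2, Ercc5, Psrc1, Ak1 and Rps27l, with rises of 0.25 to 0.52.

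Of the 21 called p53 targets, 12 were also called when any of the 5 libraries was left out. Those 12 include Perp, Plk2, Trp53inp1, Mdm2, Ccng1, Phlda3, Btg2, Rb1, Eda2r and Gtse1. Bbc3 lost its call without Gnl3 replicate 2, scramble replicate 1 or scramble replicate 2, and Apaf1 without Gnl3 replicate 2 or scramble replicate 3. Zmat3 lost it without either Gnl3 library or without scramble replicate 1. Aen lost it without Gnl3 replicate 1 or scramble replicate 1 or 3, and Plk3 without Gnl3 replicate 2. Ptprv lost it without Gnl3 replicate 1 and Rps27l without Gnl3 replicate 1 or scramble replicate 3. Ak1 lost it without Gnl3 replicate 1 or scramble replicate 1 or 3, and Ercc5 without any library but scramble replicate 3.

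**Figure D3:**
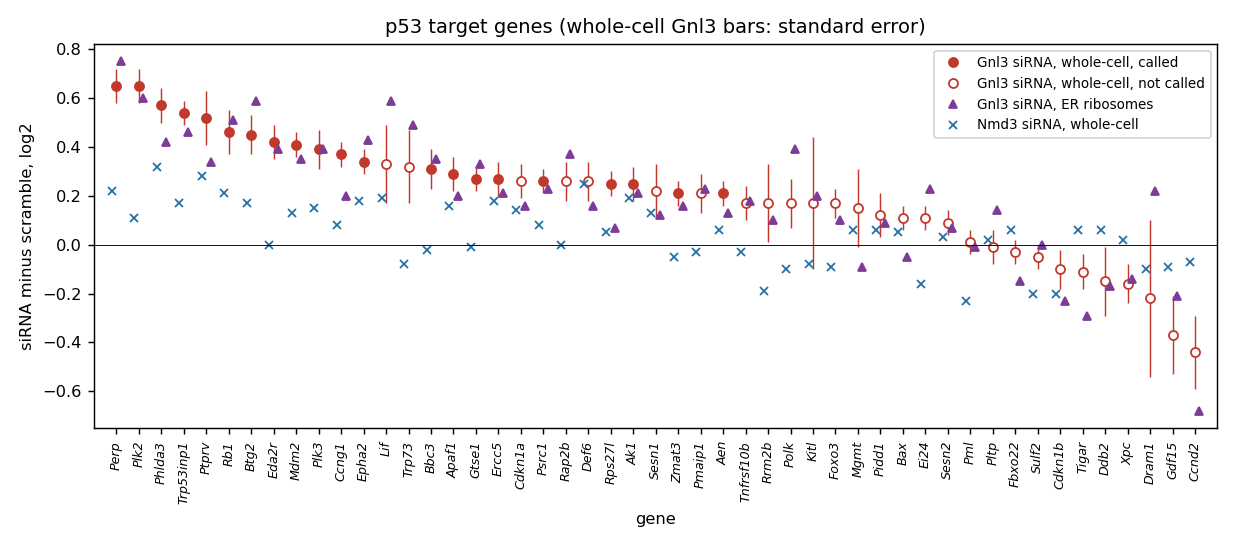
Log2 change (vertical axis) of the 49 measured p53 target genes (horizontal axis, ordered by the whole-cell change). Circles are Gnl3 siRNA minus scramble in whole-cell RNA with the standard error (filled where called, 21 genes), triangles the same in ER ribosome-bound RNA, and crosses Nmd3 siRNA minus scramble in whole-cell RNA, which lie at a median of 0.06.

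Many targets of the integrated stress response fell. Of 36 measured, 16 were called and all 16 fell, while 20 did not pass the test. The called share was 44.4%, beside 0.653% of all genes called lower. This list too was chosen with earlier results of these data known, so its share is no independent support. The median log2 difference of the 36 was -0.21 and 4 were above 0. No change reached 1.5-fold, and the sizes of the called changes ran from 0.19 to 0.52. With replicate 3 added the median was -0.24, and no member was called. In replicate 3, 14 of the 16 lay below the scramble range, 1 lay within it and 1 above it. The share over all genes was not counted, and the part of that library's shift with GC content was not tested. Without Gnl3 replicate 1 the count was 7 in place of 16.

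**Figure D4:**
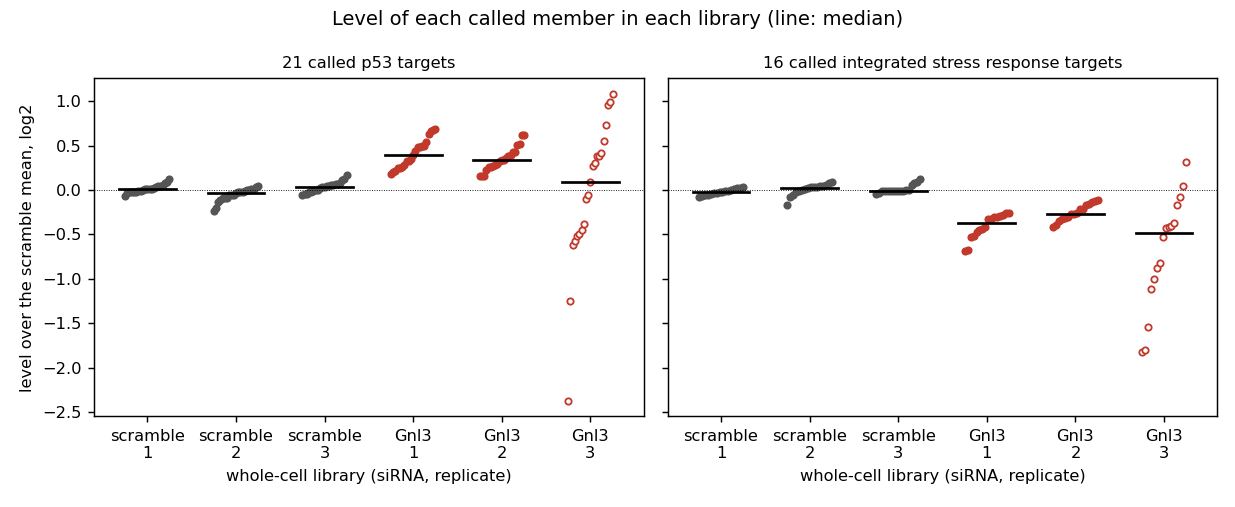
Level of each called p53 target (left, 21 genes) and each called integrated stress response target (right, 16 genes) in the 6 whole-cell libraries (horizontal axis), as log2 of its CPM over the scramble mean (vertical axis). Points are genes and lines medians, which are 0.39, 0.34 and 0.09 on the left and -0.37, -0.26 and -0.48 on the right in Gnl3 replicates 1, 2 and 3, the open points of replicate 3 being spread widest.

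The called members included enzymes that make serine, glycine, proline and asparagine. Psat1, the aminotransferase of serine synthesis, was at 536, 545 and 515 CPM in scramble and at 399, 443 and 472 CPM in Gnl3 libraries. All 3 Gnl3 libraries lay below all scramble libraries, and the level fell by 0.33 on the log2 scale (SE 0.05, adjusted p = 2.25e-05, edgeR). Phgdh, which makes the first step of that pathway, went from 159, 172 and 166 CPM to 122, 138 and 47.7 CPM and fell by 0.34 (adjusted p = 1.43e-04, edgeR). Aldh18a1, the first enzyme of proline synthesis, went from 123, 119 and 121 CPM to 88.5, 97.6 and 91.6 CPM and fell by 0.37 (adjusted p = 4.51e-05, edgeR). For both, the 3 Gnl3 libraries were again the lowest. Asns, asparagine synthetase, went from 274, 298 and 275 CPM to 235, 243 and 290 CPM and fell by 0.23, with replicate 3 inside the scramble range. Shmt2 and Mthfd2, of mitochondrial one-carbon metabolism, fell by 0.20 and 0.27, and Pck2, mitochondrial phosphoenolpyruvate carboxykinase, by 0.39. Pycr1, the last enzyme of proline synthesis, did not pass, with a difference of -0.26 (adjusted p = 0.144, edgeR), and Cth, of cysteine synthesis, neither, with 0.08 (adjusted p = 0.637).

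Some amino acid carriers and tRNA synthetases were also called. Slc7a1, the carrier of arginine and lysine, went from 131, 131 and 145 CPM to 95.2, 107 and 77 CPM and fell by 0.42 (SE 0.06, adjusted p = 1.52e-05, edgeR). Slc6a9, a glycine carrier that overlaps other genes on the opposite strand, fell by 0.52, and Slc7a5, which carries large neutral amino acids, by 0.19. The carrier genes Slc7a3, Slc3a2 and Slc7a11 did not pass, with differences of -0.12, -0.11 and -0.00. Of the tRNA synthetases, Nars, Aars, Sars and Cars fell by 0.24, 0.24, 0.23 and 0.21. Gars, Mars, Eprs and Wars did not pass, with differences of -0.16, -0.17, -0.10 and -0.05.

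The stress-signalling members were less uniform. Chac1, an enzyme that degrades glutathione, was at 44.1, 49.7 and 46.3 CPM in scramble and at 32.4, 35 and 16 CPM in Gnl3 libraries, and fell by 0.46 (SE 0.08, adjusted p = 2.75e-04, edgeR). Nupr1, a stress-induced chromatin protein gene, went from 26.7, 27.6 and 28.7 CPM to 17.2 and 23 CPM and fell by 0.45, while replicate 3, at 34.4 CPM, lay above scramble. Atf4 mRNA itself was at 287, 311 and 294 CPM in scramble and at 281, 276 and 195 CPM in Gnl3 libraries, and did not pass (log2 -0.09, adjusted p = 0.505, edgeR). Trib3, a feedback inhibitor, had a log2 difference of -0.24 (adjusted p = 0.0544), and Ddit3 (Chop), a transcription factor of ER stress, one of -0.22 (adjusted p = 0.274, edgeR). Ddit4, an inhibitor of mTORC1, had the highest value of the list, 0.18, and did not pass (adjusted p = 0.116, edgeR).

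Of the 16 called stress response targets, 6 were called in every fit that left out 1 of the 5 libraries: Psat1, Phgdh, Aldh18a1, Pck2, Slc7a1 and Chac1. Aars, Asns, Nars and Sars lost their call without Gnl3 replicate 1, and Mthfd2 without Gnl3 replicate 2. Nupr1 and Slc6a9 lost theirs without Gnl3 replicate 1 or scramble replicate 3. Cars, Shmt2 and Slc7a5 lost theirs without Gnl3 replicate 1, scramble replicate 1 or scramble replicate 3. A separate list of 30 ER chaperones and unfolded protein response genes had no called member and a median of -0.02.

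**Figure D5:**
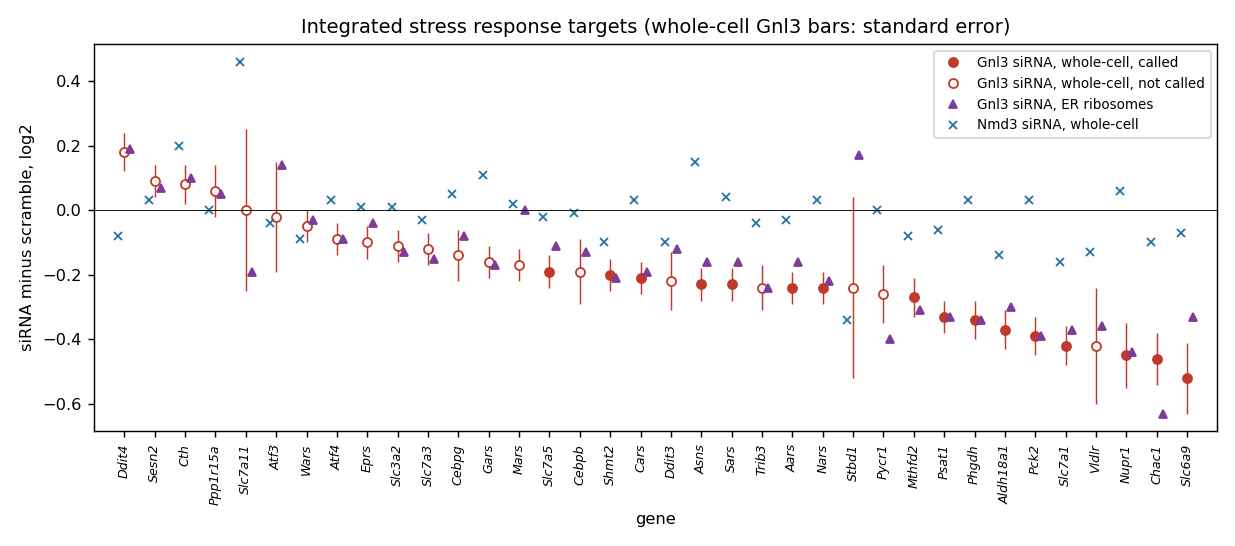
Log2 change (vertical axis) of the 36 measured integrated stress response targets (horizontal axis, ordered by the whole-cell change), with the same symbols as the plot of p53 targets. The 16 filled circles (called) all lie below 0, and the Nmd3 siRNA crosses lie at a median of -0.00.

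Several genes outside the lists are known to act in the same amino acid pathways. They were chosen here after their values were seen, so they add no support to the counts of the list. Gpt2, mitochondrial alanine aminotransferase, went from 83.9, 92.7 and 87.1 CPM to 61.2, 70.2 and 40.6 CPM and fell by 0.41 (adjusted p = 9.85e-05, edgeR). Xpot, which exports tRNA from the nucleus, fell by 0.24, the tRNA synthetase genes Iars and Yars by 0.20 and 0.19, and Slc1a4, a carrier of serine and alanine, by 0.36. Iars was at 474 CPM in replicate 3, above the scramble range of 423 to 434 CPM, and its value with all 6 libraries was -0.01. Aldh1l2, a mitochondrial folate enzyme, fell by 0.85 from a low level (5.71, 6.28 and 5.62 CPM to 2.5, 3.86 and 4.24 CPM). Mthfd1, another folate enzyme, went the other way and rose by 0.25 (adjusted p = 6.61e-04, edgeR). Its replicate 3 value, 236 CPM, lay below the scramble range. Xpot, Iars, Slc1a4 and Aldh1l2 were among those that lost their call without Gnl3 replicate 1, and Yars lost it without either Gnl3 library or without scramble replicate 1 or 3. Among non-coding genes, Neat1, the RNA of paraspeckles, rose by 0.43 from 37.8, 37.2 and 40.4 CPM to 51.6 and 51.4 CPM, with replicate 3 at 20.8 CPM.

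The start regions of the members were searched for the 2 kinds of site that define these pathways, to show what the DNA beside the genes that moved looks like. The windows are RefSeq promoters of build GRCm38.p6, from 250 bases before to 50 after the gene start, and both strands were read. A p53 response element (a pair of decamer sites at most 13 bases apart, with at most 2 mismatches over the pair and with the C and the G of each core kept) was found for 3 of the 16 called p53 targets with a window (18.8%). It was found for 5 of the 22 not called (22.7%) and for 4.71% of all genes. The letters TGATGNAA, which the Atf4 dimer with C/EBP proteins is known to bind, were found for 5 of the 13 called stress response targets with a window (38.5%), for 6 of the 17 not called (35.3%) and for 4.51% of all genes.  The 2 p53 windows and 5 Atf4 windows that lie before the gene start follow, 5′ to 3′ on the strand of the gene, with the match in capitals. In all but Asns the Atf4 letters lie on the other strand and so appear as their reverse complement.
Ccng1, chr11:40755437-40755506, minus strand: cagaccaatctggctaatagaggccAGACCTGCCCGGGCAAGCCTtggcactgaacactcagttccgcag
Rps27l, chr9:66946271-66946340, plus strand: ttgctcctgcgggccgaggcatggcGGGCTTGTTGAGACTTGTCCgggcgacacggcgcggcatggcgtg
Chac1, chr2:119351024-119351081, plus strand: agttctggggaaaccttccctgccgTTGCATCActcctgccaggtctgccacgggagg
Nupr1, chr7:126625548-126625605, minus strand: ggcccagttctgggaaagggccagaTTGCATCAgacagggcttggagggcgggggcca
Pck2, chr14:55540138-55540195, plus strand: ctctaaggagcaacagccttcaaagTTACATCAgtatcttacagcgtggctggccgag
Aars, chr8:111033705-111033762, plus strand: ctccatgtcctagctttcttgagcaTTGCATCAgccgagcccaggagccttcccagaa
Asns, chr6:7693210-7693257, minus strand: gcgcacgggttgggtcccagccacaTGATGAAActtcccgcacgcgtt
In the order shown, the match begins 195, 117, 193, 110, 103, 112 and 23 bases before the gene start. Ccng1 and Rps27l rose by 0.37 and 0.25, and the 5 genes with the Atf4 letters fell by 0.46, 0.45, 0.39, 0.24 and 0.23. A match of letters is a description of the window, and no binding was measured.

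Genes of ribosome assembly, the process in which nucleostemin is known to act, were called about as rarely as all genes. Of 58 assembly factors of the large (60S) subunit, 1 was called, a share of 1.72% beside 1.58% of all genes, and the median was -0.01. The called gene, Nop16, a nucleolar assembly factor, rose by 0.43 from 65.1, 72.4 and 62.2 CPM to 91.9, 86.7 and 69.5 CPM. Of 59 genes of the small subunit processome and 18 of RNA polymerase I, none was called, with medians of -0.02 and 0.01. Lists of this size would hold few calls at the share of all genes. Of 49 large subunit ribosomal protein genes, Rpl22l1 was called and fell by 0.22 (a share of 2.04%). Of 33 small subunit ones, Rps27l, which is also counted as a p53 target, rose by 0.25 (3.03%). Rpl22l1 overlaps an antisense gene and lost its call in 4 of the 5 fits that left out a library.

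The stem cell state was described by 38 pluripotency genes, of which 2 rose, 2 fell and 34 did not pass (median -0.05). The called share was 10.5%, beside 1.58% of all genes. Nanog, a core factor, was at 521, 531 and 516 CPM in scramble and at 431 and 476 CPM in Gnl3 replicates 1 and 2, and fell by 0.20, while replicate 3 was at 551 CPM. Tet2, a DNA demethylase, fell by 0.32 and was at 189 CPM in replicate 3 against 124 to 153 CPM in scramble, so that its value was 0.05 with replicate 3 added. Dnmt3l, a cofactor of DNA methylation, rose by 0.26, and Socs3, a feedback inhibitor of LIF signalling, by 0.27, the latter with -0.07 when replicate 3 was added. Sox2 and Pou5f1 did not pass, with differences of -0.00 and -0.05. Nanog lost its call without Gnl3 replicate 1 or scramble replicate 1 or 3, and Tet2 and Socs3 without Gnl3 replicate 2. Of 28 epiblast and germ layer genes, Lef1, a Wnt effector that overlaps an antisense gene, fell by 0.39 and Dnmt3a, a DNA methyltransferase, by 0.19, a called share of 7.14%. Dnmt3a lost its call without Gnl3 replicate 2 or scramble replicate 1 or 3. Lists of primitive endoderm (19 genes), trophoblast (11) and 2-cell-like genes (17) had no called member, and at 1.58% lists of this size would hold few. Their medians were 0.07, -0.16 and 0.15, and 14 of the 17 2-cell-like genes were above 0. In ER ribosome-bound RNA 4, 1 and 2 members of these lists were called higher and 0 lower, beside 4.11% of all genes called higher.

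Each signalling list held some called genes, and their shares stand beside 1.58% of all genes. Of 24 FGF and ERK pathway genes, 1 rose and 2 fell (12.5%). Of 17 Nodal and activin pathway genes, 1 rose and 1 fell (11.8%). In the BMP list 2 of 23 rose (8.7%), and in the Wnt list 1 of 28 fell (3.57%). Id1, a transcriptional inhibitor that BMP signals switch on, was at 67.6, 63.8 and 58.7 CPM in scramble and at 103 and 95.6 CPM in Gnl3 replicates 1 and 2, and rose by 0.66 (SE 0.06, adjusted p = 4.65e-09, edgeR), while replicate 3 was at 46.6 CPM. Id2, of the same family, went from 18.8, 17.4 and 18.4 CPM to 26.3, 25.9 and 33.9 CPM and rose by 0.53 in groups that did not overlap. Id3 did not pass (log2 0.09, adjusted p = 0.745, edgeR). Inhbb, the beta B subunit of activin, went from 50.4, 44.1 and 51.8 CPM to 34.5, 33.9 and 29 CPM and fell by 0.51 (adjusted p = 5.48e-05, edgeR), and Nodal, a related ligand, rose by 0.29, with replicate 3 at 36.3 CPM below the scramble range. Fgf15, a growth factor, fell by 0.76 and Trh, a hormone precursor, by 0.49. Nodal and Fgf15 were among the genes that lost their call without Gnl3 replicate 1, and Fgf15 also without Gnl3 replicate 2 or scramble replicate 3.

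Of 40 genes that respond to adhesion, YAP and SRF, 2 rose and none fell, a share of 5% beside 0.932% of all genes called higher. Ccn1, a matrix-associated protein, went from 29.2, 29.2 and 32.4 CPM to 50.3, 40 and 42.7 CPM and rose by 0.57 (adjusted p = 4.34e-05, edgeR). Ccn2, of the same family, went from 41.3, 41.4 and 43.7 CPM to 59.2, 65.4 and 51.3 CPM and rose by 0.57 (adjusted p = 7.19e-07, edgeR), and it overlaps an antisense gene. For both, all 3 Gnl3 libraries were the highest. Chosen after their values were seen, Cavin1, a coat protein of caveolae, rose by 0.55, Rhob, a small GTPase of the actin skeleton, by 0.51, Anxa2, a membrane-binding annexin, by 0.47 and Ptpn14, a phosphatase that restrains YAP, by 0.40. Cavin1, Rhob and Ptpn14 were below the scramble range in replicate 3, at 41.2, 29.4 and 80.4 CPM.

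Of the protein-coding genes called with a mean of at least 5 CPM in either group, the strongest rises were those of Anxa1 (0.88), Nlrp12 (0.80), Inka2 (0.79), Ddit4l (0.77) and Gyg (0.74). Anxa1, an annexin of inflammation control, went from 4.45, 6 and 6.11 CPM to 10.5, 10 and 8.29 CPM, and Gyg, which primes glycogen, from 7.91, 6.34 and 6.37 CPM to 11.3, 11.5 and 11.1 CPM. In both genes the groups did not overlap with replicate 3 included. Nlrp12 and Inka2 had scramble means of 4.17 and 4.13 CPM and so met the level through the Gnl3 group alone. Nlrp12 lies opposite the microRNA genes Mir291a to Mir295, and its replicate 3 value, 3.06 CPM, lay below scramble. After Gnl3 itself and Aldh1l2, the strongest falls were those of Vash1 (-0.80), Mobp (-0.78), Fgf15 (-0.76) and Lgals9 (-0.73). Aldh1l2, Vash1, Mobp and Fgf15 met the level through scramble alone. Lgals9, a galectin, went from 18.2, 14.1 and 15.3 CPM to 9.54, 9.38 and 10.9 CPM (SE 0.12, adjusted p = 2.81e-04, edgeR). Armcx2, an armadillo repeat gene of the X chromosome, went from 48.9, 50.5 and 50.5 CPM to 31.3, 34.3 and 35.2 CPM and fell by 0.60 (adjusted p = 1.66e-06, edgeR). In both, all Gnl3 libraries lay below all scramble libraries. Inka2 lost its call without Gnl3 replicate 1, Nlrp12 without Gnl3 replicate 2, Vash1 without Gnl3 replicate 2 or scramble replicate 1, and Mobp without either Gnl3 library or without scramble replicate 2.

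Other lists held few called genes, and their called shares stand beside 1.58% of all genes. Cdkn1c, a cell cycle inhibitor, rose by 0.30 and Ccnd1, cyclin D1, fell by 0.20, and among 32 regulators of the G1/S step 3 rose and 1 fell (12.5%). Of 29 genes of apoptosis, Bbc3 and Apaf1 rose (6.9%). Msmo1 and Insig1, of sterol synthesis and its control, rose by 0.33 and 0.30, 2 of the 30 genes of that list (6.67%). Ifitm1, an interferon-induced membrane protein, fell by 0.42. Lists of DNA replication (50 genes), DNA damage and fork protection (40), telomere (17), mitosis (45) and heat shock genes (25) had no called member. Without Gnl3 replicate 2 Cdkn1c, Ccnd1, Msmo1 and Insig1 each lost their call, as they did in other fits that left out a library.

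An siRNA against Nmd3, the export adaptor of the large ribosomal subunit, was used in the same study and gives a second knockdown of a gene of 60S maturation. Nmd3 and Gnl3 siRNA libraries share the scramble controls, so each change is given on its own and their difference was tested directly, with 2 Gnl3 and 2 Nmd3 whole-cell libraries (the submitters left out Nmd3 replicate 2). Gnl3 mRNA was at 280, 276 and 268 CPM after Nmd3 siRNA. The direct test called 37 of 17490 genes (0.212%), 19 higher (0.109%) and 18 lower (0.103%) after Gnl3 siRNA. That count was 983 without Nmd3 replicate 3, 24 without Nmd3 replicate 1, 7 without Gnl3 replicate 1 and 16 without Gnl3 replicate 2, and with all 9 whole-cell libraries it was 0. In that test 5 of the 49 p53 targets were higher after Gnl3 than after Nmd3 siRNA: Perp (0.42), Plk2 (0.54), Trp53inp1 (0.36), Eda2r (0.42) and Gtse1 (0.29). The list's median difference was 0.19. Perp was at 46.3, 56.1 and 47.1 CPM after Nmd3 siRNA, between scramble and Gnl3 siRNA, and Plk2 at 48.5, 29.1 and 50.5 CPM, the 29.1 CPM being that of the library left out. For Mdm2 the difference was 0.28 and did not pass (SE 0.07, adjusted p = 0.0811, edgeR).

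Among the stress response targets 3 of 36 were lower after Gnl3 than after Nmd3 siRNA: Asns (-0.38), Phgdh (-0.38) and Pck2 (-0.43), and the median was -0.20. Asns was at 319, 349 and 309 CPM after Nmd3 siRNA, above its scramble level of 274 to 298 CPM, and at 235 and 243 CPM in Gnl3 replicates 1 and 2. Against scramble, Nmd3 siRNA called none of the 49 p53 targets and none of the 36 stress response targets, where 0.166% of all genes were called (0.0629% higher and 0.103% lower). Their medians were 0.06 and -0.00. Inhbb (-0.62, adjusted p = 3.53e-04) and Id2 (0.65, adjusted p = 0.0191, edgeR) also differed between the knockdowns, whereas Lef1 (0.09, SE 0.09), Nop16 (0.06, SE 0.08) and Ifitm1 (-0.05, SE 0.13) did not pass. For Lef1 the change against scramble was -0.39 after Gnl3 siRNA and -0.48 after Nmd3 siRNA.

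The RNA bound to ER ribosomes came from the same cultures, so it is a second measurement of them and not a further set of replicates. There the test used 3 Gnl3 and 2 scramble libraries and called 1312 of 17260 genes (7.6%). Without scramble replicate 2, scramble replicate 3 or Gnl3 replicate 3 of that fraction the count was 472, 652 or 863. Gnl3 mRNA was at 170 and 177 CPM in scramble and at 31.6, 26.9 and 29.7 CPM in Gnl3 libraries of this fraction (log2 -2.58, adjusted p = 8.87e-32, edgeR). Gnl3 replicate 3 of this fraction was not set apart by the submitters. Of the p53 targets 25 rose and 3 fell there (median 0.20, beside 4.11% of all genes called higher and 3.49% lower). Perp was at 96.4 and 90.9 CPM in scramble and at 167, 157 and 153 CPM in Gnl3 libraries, and Trp53inp1 at 98.9 and 106 CPM and at 143, 140 and 143 CPM. Of the 21 p53 targets called in whole-cell RNA, 18 were called in the same direction in this fraction, where 217 of the 270 genes called in whole-cell RNA and tested here were. Rps27l (0.07), Apaf1 (0.20) and Ercc5 (0.21) were those that did not pass.

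Of the stress response targets 21 fell and 1 rose in ER ribosome-bound RNA (median -0.16). All 16 called in whole-cell RNA were called lower there, beside the same 217 of 270 over all called genes. Psat1 was at 490 and 488 CPM in scramble and at 373, 390 and 410 CPM in Gnl3 libraries, and Chac1 at 52.3 and 48.4 CPM and at 28.9, 35.5 and 33.7 CPM. The 3 Gnl3 libraries of this fraction all lay below both scramble libraries for these genes. The test of the difference between the 2 fractions' changes, over 17911 genes, called 1 gene (0.00558%), Ftl1, and no p53 or stress response target, with the smallest adjusted p among the called members being 0.718 and 0.901. That count of 1 was 37 without scramble whole-cell replicate 2, 7 without Gnl3 whole-cell replicate 2 and 11 without Gnl3 ER replicate 2. For Perp the difference of the changes was 0.11 (SE 0.08), and for Psat1 it was 0.00 (SE 0.06). Large subunit ribosomal protein genes had 30 of 49 called lower in this fraction against 1 in whole-cell RNA, and small subunit ones 18 of 33 against 0. Of all genes, 3.49% were called lower in this fraction and 0.653% in whole-cell RNA. The medians of the large and small subunit lists were -0.11 and -0.10 in this fraction, and 0.03 and 0.05 in whole-cell RNA. None of either list differed between the fractions in the direct test.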

How the data were processed

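PolyA RNA of 6 whole-cell libraries was compared (3 scramble siRNA, 3 Gnl3 siRNA). The deposited files hold unnormalized counts for each gene. Per the submitters' processing notes, STAR 2.7.9a, HTSeq 0.11.2, DESeq2 and build GRCm39 were used. The annotation release, strand setting and read filters are not given in the sources used here. The 5 summary lines per file were dropped; entries with no feature made up 46.6% to 47.9%. Symbols for 52083 of 55416 gene IDs, transcript GC content and opposite-strand overlaps came from GENCODE M21 (GRCm38), and promoters from RefSeq (GRCm38.p6).

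Genes were tested in R 4.3.3 with edgeR 4.0.16 (filterByExpr, TMM, robust quasi-likelihood fit), without Gnl3 replicate 3, and again with it. Benjamini-Hochberg adjustment covered every gene in a fit; the call was an adjusted p under 0.05, with a 1.5-fold minimum as a second rule. SE is the size of the log2 fold change over the root of F. CPM are plain shares of gene counts. The scripts were tested on simulated data. The members and gene lists (36) were chosen with earlier results of these data known. Genes named are the 15 strongest called per direction with a mean of at least 5 CPM in either group, up to 4 per list, and all called members of the p53 and stress response lists. Alternatives were DESeq2 1.42.0, other scaling, no filter, a replicate block, added libraries and leaving out each library. The labels call the replicates biological; p-values measure the spread between them. Equal replicate numbers were not treated as pairs within whole-cell RNA, but both fractions of a number come from 1 lysate.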

Additional observations from a re-analysis of the deposited data

Results flagged for a closer look

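Ftl1, the ferritin light chain gene, changed differently in the 2 fractions after Gnl3 siRNA, by a test of the difference itself. The change in ER ribosome-bound RNA minus that in whole-cell RNA was -0.37 on the log2 scale (SE 0.06, adjusted p = 1.61e-04, edgeR). In whole-cell RNA Ftl1 was at 566, 557 and 556 CPM in scramble and at 583 and 585 CPM in Gnl3 replicates 1 and 2 (log2 0.07, adjusted p = 0.614). Replicate 3, not used in that fit, was at 42.3 CPM. In ER ribosome-bound RNA it was at 476 and 475 CPM in scramble and at 363, 408 and 385 CPM in Gnl3 libraries (log2 -0.31, adjusted p = 6.35e-08). With Gnl3 whole-cell replicate 3 added to the fit no gene was called for this difference. Ftl1 has near-identical pseudogenes and overlaps Gm10252 on the other strand, so its counts are uncertain.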

How the results depend on the processing

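With Gnl3 replicate 3 added, or with all 9 whole-cell libraries in the fit, edgeR called no gene. That was 0 in place of 272, 0 of 21 p53 targets and 0 of 16 stress response targets. In place of 36 with 1.5-fold, 0 were called with replicate 3. Gnl3 itself was at -1.84 in both fits. Of 103 called genes followed by name, Bbc3 (-0.16), Socs3 (-0.07), Sp4 (0.07) and Tet2 (0.05) then had the opposite sign. Over all called genes, 246 of the 270 tested in both kept their sign with replicate 3 added. The replicate block gave 174 genes in place of 272, 63 in place of 37 for Gnl3 against Nmd3 siRNA, and, as lysates, 2 in place of 1 for the difference between fractions; same-numbered whole-cell libraries did not deviate together (correlations -0.12, -0.02 and -0.10), so the numbers were not taken as pairs. With the Nmd3 libraries in the fit 142 genes were called and 23 with 1.5-fold. DESeq2 gave 15 with 1.5-fold, and 5 in place of 0 for all 6 libraries, and a 2-fold minimum gave 9. Without the filter on low counts, 1 gene was called with all 6 libraries, 122 for Gnl3 against Nmd3 siRNA and 10 for the difference between fractions; the last was 0 with Gnl3 replicate 3. Leaving out 1 library gave 126 to 351 genes, 20 to 36 with 1.5-fold, 0 to 272 for all 6 libraries, 7 to 983 for Gnl3 against Nmd3 siRNA, 1 to 37 for the difference between fractions, 472 to 1309 for ER ribosome-bound RNA, 15 to 19 p53 targets and 7 to 18 stress response targets. Depth (15.2 to 22.8 M) and 2 Gnl3 libraries limit what small changes could be called.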
